A study of Mus musculus with 21 samples.

Results

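The Hedgehog genes described here are the 7 genes Shh, Ptch1, Smo, Gli1, Gli2, Gli3 and Hhip, which encode a ligand, its receptor, the signal transducer, the transcriptional effectors and a ligand-binding inhibitor of the pathway. They were chosen by name, and all 7 were among the 49315 gene identifiers of the count files. The series concerns Tfap2a and Tfap2b, which encode AP-2α and AP-2β, a pair of related transcription factors, in mouse epidermis, and gene expression was measured by sequencing of total RNA from epidermal sheets after depletion of ribosomal RNA. Of 21 samples in 7 groups of 3, 8 had files with counts. The comparison at 6 months of age set 3 libraries with the genotype K14CreTfap2afl/flTfap2bfl/fl, called here the libraries labelled double KO, against 3 strain-specific control libraries with the genotype WT. A further 2 libraries, from 3-week-old mice with the genotype K14CreTfap2bfl/fl, had counts without a control of that age that could be used. In K14Cre the Krt14 promoter, active in basal keratinocytes, drives the Cre recombinase, so floxed alleles are not targeted in dermal, neural or immune cells. The labels gave no strain name, no sex and no statement of how samples relate to animals, so the p-values below measure the spread between these samples.

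In the Hedgehog pathway a secreted ligand binds Patched, which otherwise holds the membrane protein Smoothened inactive. Active Smoothened collects in the primary cilium and leads to activation of Gli2 and to less of the repressor form of Gli3, and Gli1, Ptch1 and Hhip are themselves induced, so that their transcripts are commonly used as readouts of signalling. In skin, Shh is made mainly by the growing hair follicle and by sensory neurons, and the response is seen in follicle keratinocytes, in the dermal papilla and in touch domes, while basal cell carcinoma is driven by unrestrained signalling through Smoothened.

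Total counts per library were 11318181 to 17746284. Neither targeted gene was lost at the level of whole-gene counts, which also include exons outside a floxed stretch and so do not check the deletion itself. Tfap2a was at 140.3 to 210.1 CPM (counts in 1000000 counts of the library) in the controls and at 213.2 to 309.2 CPM in libraries labelled double KO, and Tfap2b was at 57.3 to 86.6 and 53.8 to 57.2 CPM. Every direction below is therefore that of the libraries as labelled. Epidermal markers were abundant in all 8 libraries, with Krt5 at 2434 to 5893 CPM and Krt14 at 1018 to 5079 CPM. Control replicates 1 and 2 stood apart in the density of counts in odorant and vomeronasal receptor genes, which skin is not known to use, at 1.61 and 3.19 counts per exonic kb, where control replicate 3 had 0.148 and the libraries labelled double KO had 0.107 to 0.195. Applied to the exonic length of a gene, that density gives a background count against which the low members were read.

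Positions are those of the files, read as the GRCm38 assembly. Shh (ENSMUSG00000002633) lies on chromosome 5 from 28456815 to 28467256, Ptch1 (ENSMUSG00000021466) on chromosome 13 from 63508328 to 63573598, Smo (ENSMUSG00000001761) on chromosome 6 from 29735503 to 29761365 and Gli1 (ENSMUSG00000025407) on chromosome 10 from 127329889 to 127341589. Gli2 (ENSMUSG00000048402) lies on chromosome 1 from 118834132 to 119053619, Gli3 (ENSMUSG00000021318) on chromosome 13 from 15463235 to 15730026 and Hhip (ENSMUSG00000064325) on chromosome 8 from 79965851 to 80058006. Smo and Gli3 are on the plus strand and the other 5 on the minus strand. The use of strand in counting was not given in the sources used here, and exons of Shh, Gli1, Gli3 and Hhip share bases with genes on the opposite strand. The shared stretch was 446 exonic bases with 9530036O11Rik for Shh, and 55 exonic bases with Arhgap9 for Gli1, where Arhgap9 held 13 to 76 counts per library.

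The stretches just before the RefSeq start sites of Smo, Gli2 and Hhip are printed here because these were the members whose control and double-KO libraries did not overlap in CPM. Each holds 250 bases, 5′ to 3′ on the strand of the gene, from RefSeq on GRCm38.p6, at chr6:29735247-29735496 (plus strand), chr1:119053620-119053869 (minus strand) and chr8:80058009-80058258 (minus strand), with a match to the AP-2 motif, present only in Hhip of these 3, in capitals.
Smo: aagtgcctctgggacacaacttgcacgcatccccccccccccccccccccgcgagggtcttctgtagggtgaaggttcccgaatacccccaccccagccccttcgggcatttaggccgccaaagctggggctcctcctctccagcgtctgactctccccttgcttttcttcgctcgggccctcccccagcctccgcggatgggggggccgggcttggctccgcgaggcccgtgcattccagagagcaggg
Gli2: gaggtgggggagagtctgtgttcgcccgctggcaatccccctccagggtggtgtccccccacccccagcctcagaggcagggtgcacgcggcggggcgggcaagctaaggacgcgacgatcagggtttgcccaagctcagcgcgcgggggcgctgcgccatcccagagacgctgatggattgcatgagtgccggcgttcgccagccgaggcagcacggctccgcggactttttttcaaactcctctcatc
Hhip: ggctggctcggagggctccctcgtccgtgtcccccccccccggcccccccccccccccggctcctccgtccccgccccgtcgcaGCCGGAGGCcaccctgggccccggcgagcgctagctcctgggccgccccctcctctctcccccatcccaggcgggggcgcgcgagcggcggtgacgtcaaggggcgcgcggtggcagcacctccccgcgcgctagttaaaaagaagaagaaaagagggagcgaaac
RefSeq promoter sequences were matched for 5 of the 7 members, Ptch1, Smo, Gli2, Gli3 and Hhip, and not for Shh and Gli1. The AP-2 motif GCCNNNGGC, which reads the same on both strands, was found in 1 of the 5, as GCCGGAGGC beginning 166 bases before the start of Hhip, and in 13.7% of all 32817 such stretches. The Gli motif TGGGTGGTC, searched on both strands, was found in none of the 5 and in 0.226% of all stretches. The motifs do not overlap in these sequences, and a match is a stretch of letters, not a measured binding site.

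Of the 7 members, 6 passed the filter on low counts and were tested at 6 months, and 1 of the 6, Smo, passed an adjusted p of 0.05 in edgeR's quasi-likelihood test, as higher in libraries labelled double KO. Across all 17755 genes tested, 14.9% passed in either direction, 6.26% as higher and 8.59% as lower, so the share of members called was near the background. None of the 6 was called lower by edgeR. By unadjusted p, 1 of them (Hhip) was lower at 0.05, and DESeq2 called 1 (Hhip) lower and limma-voom 0. Over all genes tested the shares were 32% at an unadjusted p of 0.05 (14.5% higher, 17.6% lower), 21.6% in DESeq2 (9.25% higher, 12.3% lower) and 12.3% in limma-voom (5.67% higher, 6.65% lower). For each of these rules the members' count lower was at or near what such a share of 6 genes comes to. The groups did not overlap for 3 of the 6, Smo and Gli2 higher and Hhip lower, where 38.7% of all genes tested did not overlap, 22.5% as higher and 16.3% as lower. The median log2 fold change of the 6 was 0.063, beside -0.035 over all genes tested.

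Shh, the Hedgehog ligand of the hair follicle, was close to undetected. Control replicates 1, 2 and 3 held 6, 9 and 0 counts of Shh, or 0.498, 0.795 and 0 CPM, and the libraries labelled double KO held 1, 0 and 2 counts, or 0.0724, 0 and 0.113 CPM. The Shh counts thus came mostly from the control libraries with a high receptor-gene density, where its background, estimated as above, was 4.58 and 9.08 counts. The antisense gene 9530036O11Rik, which shares exonic bases with Shh, held 14 and 26 counts in the same libraries and 0 or 1 in the other 4 libraries of that age. In control replicate 3 a count of 0 for Shh allows up to 0.195 CPM when the limit is set at 3 counts of the total, and up to 0.24 CPM by the exact 95% Poisson interval, for counting error alone, since PCR copies carry no molecular identifier here and are not independent molecules. Shh did not pass the filter on low counts and was not tested, and no difference was detectable at this depth.

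Ptch1 encodes Patched, the receptor that binds the ligand, and is also induced by the pathway. Ptch1 was at 40.9, 53.1 and 65.5 CPM in control replicates 1, 2 and 3 and at 54.03, 59.4 and 83.4 CPM in libraries labelled double KO. The groups overlapped, since control replicate 3 lay above 2 of the libraries labelled double KO. The log2 fold change of Ptch1 was 0.23 (SE 0.22, n = 3 each, edgeR adjusted p 0.489), a difference smaller than the spread between replicates could resolve. Leaving out control replicate 3 brought it to 0.49 and leaving out the library labelled double KO of replicate 3 to 0.048, neither past the threshold.

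Smo encodes Smoothened, the membrane protein that passes the signal on when Patched has bound ligand. Smo was at 31.6, 34.8 and 37.6 CPM in control replicates 1, 2 and 3, on 380 to 577 counts, and at 75.8, 63.4 and 85.7 CPM in libraries labelled double KO, on 930 to 1520 counts. All 3 libraries labelled double KO lay above all 3 controls, and the lowest of them was well clear of the highest control. Smo rose from 34.7 ± 3.01 to 74.9 ± 11.2 CPM (mean ± SD over 3 libraries each), and the log2 fold change of 1.04 (SE 0.16) had an edgeR adjusted p of 0.00459. In these bulk samples a change in the share of cells that express a gene and a change in its RNA per cell cannot be told apart. The estimated background was 0.144% to 4.55% of the Smo counts in the controls. In 15 of 16 alternatives Smo was past the threshold, at 0.96 to 1.18. With control replicates 1 and 2 left out together, so that control replicate 3 stood alone and was assumed to vary like the other group, it was 0.94 with an edgeR adjusted p of 0.077.

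**Figure D1:**
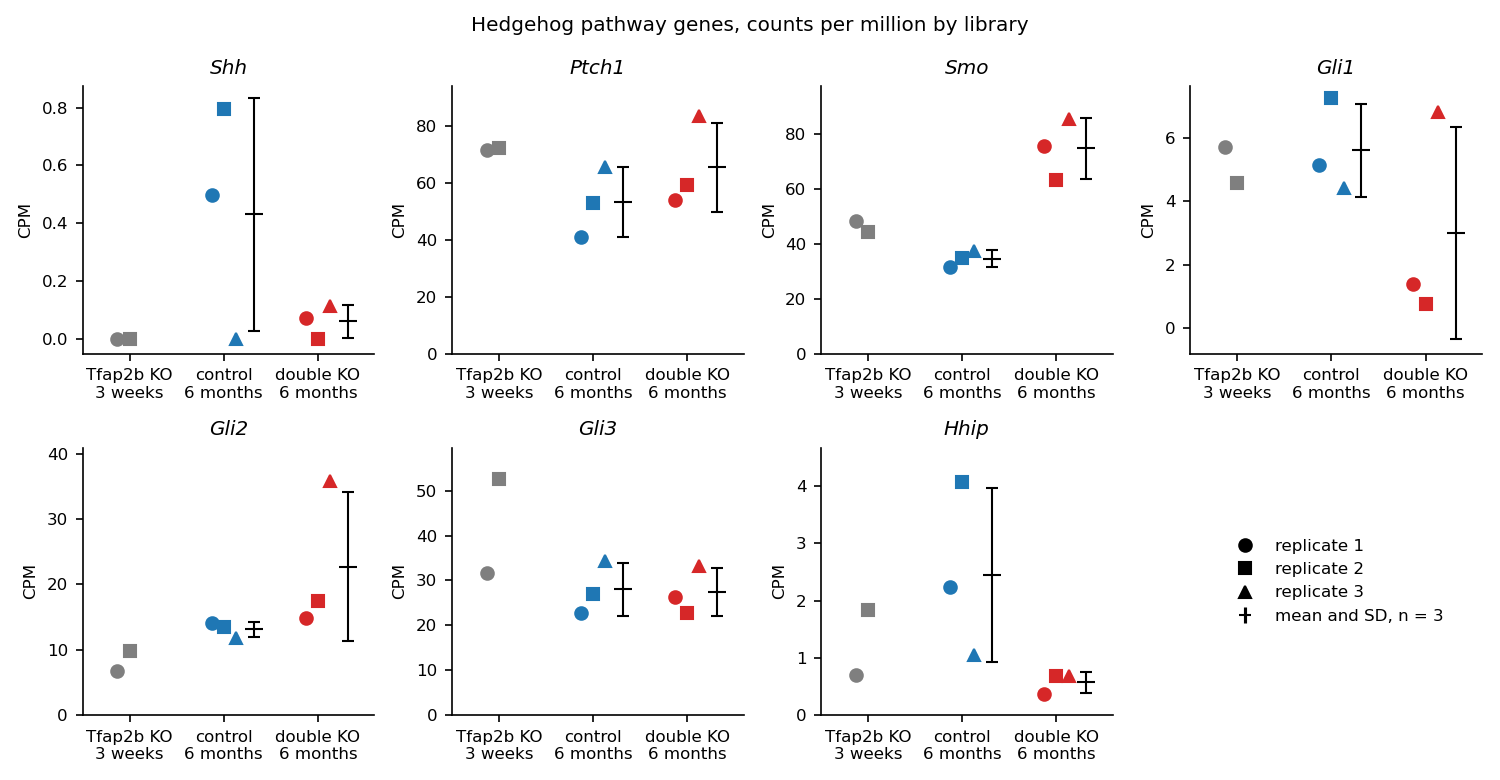
Level in CPM (vertical axes, linear) of the 7 Hedgehog genes in the 8 libraries with counts; points are libraries, marked by replicate number, and black bars are the mean and SD of the 3 libraries of a group at 6 months. The Smo points of the libraries labelled double KO lie between 63.4 and 85.7 CPM and all controls at or below 37.6 CPM, whereas in Gli1 the library labelled double KO of replicate 3 lies among the controls.

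Gli1, an activator whose transcript is switched on by the pathway, differed among the libraries labelled double KO more than between the groups. Gli1 was at 5.15, 7.24 and 4.43 CPM in control replicates 1, 2 and 3 and at 1.38, 0.75 and 6.82 CPM in libraries labelled double KO, on 62, 82 and 68 against 19, 11 and 121 counts. Replicates 1 and 2 of the double KO were below every control, and replicate 3 was above 2 of the 3 controls. The exact 95% Poisson intervals, which cover counting error only, were 0.828 to 2.15 CPM for replicate 1, 0.374 to 1.34 CPM for replicate 2 and 5.66 to 8.15 CPM for replicate 3, so the spread of Gli1 within this group was larger than counting error. For Gli1 the log2 fold change was -0.93 (SE 0.71, n = 3 each, edgeR adjusted p 0.385). Without the library labelled double KO of replicate 3 it was -2.29 with an edgeR adjusted p of 0.0232, the only alternative of those run in which Gli1 passed the threshold.

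Gli2, the main activator in response to Smoothened, was at 14.03, 13.5 and 11.8 CPM in control replicates 1, 2 and 3 and at 14.8, 17.4 and 35.8 CPM in libraries labelled double KO. The groups did not overlap, but replicate 1 of the double KO was close to control replicate 1 and replicate 3 was far above the rest. Gli2 had a log2 fold change of 0.72 (SE 0.33, n = 3 each, edgeR adjusted p 0.159). It was 0.26 without the library labelled double KO of replicate 3. Without a filter on low counts it was past the threshold, at 0.84 (edgeR adjusted p 0.0136).

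Gli3, which in the absence of ligand is processed to the main repressor of the pathway, was at 22.8, 27.04 and 34.4 CPM in the controls and at 26.3, 22.6 and 33.1 CPM in libraries labelled double KO. The groups overlapped almost completely. Gli3 had a log2 fold change of -0.11 (SE 0.21, n = 3 each, edgeR adjusted p 0.757), and its sign turned in 2 of the fits that left out 1 library, at 0.14 without control replicate 3 and 0.045 without the library labelled double KO of replicate 2.

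Hhip, a membrane protein that binds Hedgehog ligands and limits their spread, was at 2.24, 4.06 and 1.04 CPM in control replicates 1, 2 and 3 and at 0.362, 0.682 and 0.676 CPM in libraries labelled double KO, on 27, 46 and 16 against 5, 10 and 12 counts. Every library labelled double KO was below every control, but the 95% Poisson interval of control replicate 3 (0.595 to 1.69 CPM) covered the values of replicates 2 and 3 of the double KO. The log2 fold change of Hhip was -1.91 (SE 0.67, n = 3 each, edgeR adjusted p 0.0557), just short of the threshold. The receptor-gene background came to 14.6 and 28.9 of the counts of Hhip in control replicates 1 and 2, against 1.34 in control replicate 3. With this background subtracted the log2 fold change was -1.17 (edgeR adjusted p 0.2), and with control replicates 1 and 2 both left out it was -0.78. Hhip was past the threshold in DESeq2 (-2.15, adjusted p 0.0205) and without control replicate 3 (-2.18, edgeR adjusted p 0.0116), and not in the fits without control replicate 1 or control replicate 2.

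**Figure D2:**
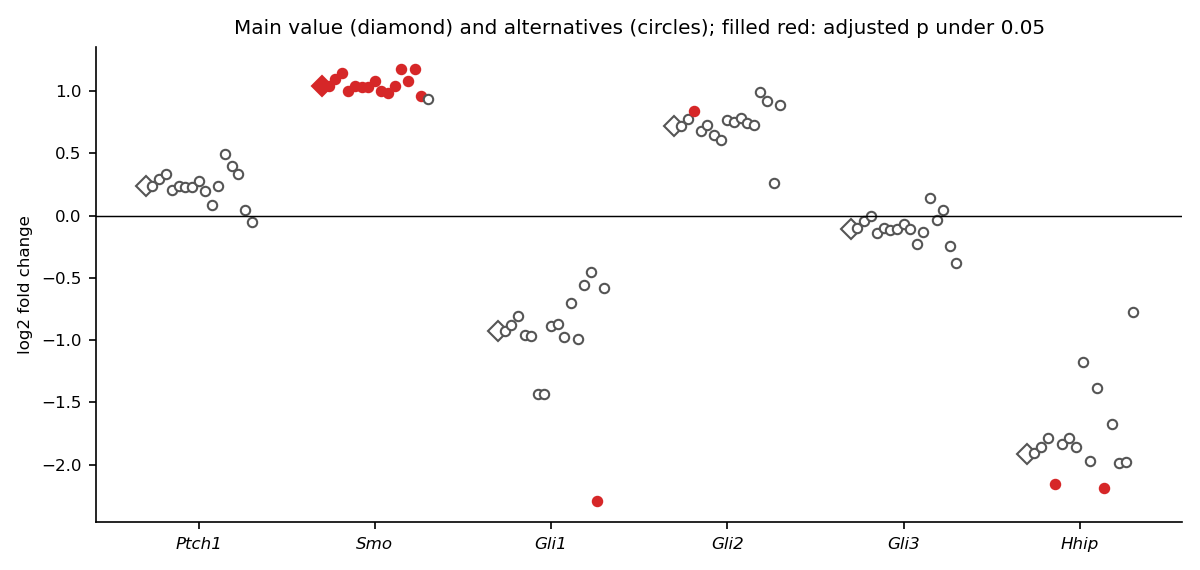
Log2 fold change of the double KO against the control at 6 months (vertical axis) for the 6 members tested, with the main value as a diamond and each alternative setting as a circle; red marks an adjusted p under 0.05. Smo stays between 0.94 and 1.18, Gli1 ranges from -2.29 to -0.45 and Hhip from -2.18 to -0.78.

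Levels of different members were compared per exonic kb, as CPM divided by exonic length in kb. In this scale Smo and Ptch1 were the highest members in all 8 libraries and Hhip and Shh the lowest. In the controls the mean levels were 6.16 ± 0.535 CPM per kb for Smo and 6.08 ± 1.41 for Ptch1, which did not differ beyond their spread, then 2.93 ± 0.613 for Gli3, 1.91 ± 0.172 for Gli2 and 1.53 ± 0.399 for Gli1 (SD, n = 3 each), with Hhip at 0.27 ± 0.168. In the libraries labelled double KO Smo was at 13.3 ± 1.98 and Ptch1 at 7.5 ± 1.79 CPM per kb, while Gli2, at 3.3 ± 1.66, and Gli3, at 2.85 ± 0.556, did not differ beyond their spread. The ratio of Smo to Ptch1 per kb was 1.2, 1.02 and 0.892 in control replicates 1, 2 and 3 and 2.18, 1.66 and 1.6 in libraries labelled double KO, with no overlap.

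The make-up of the Gli transcripts was described as shares. Gli2 made up 35.1%, 29.1% and 26.4% of the summed level of Gli1, Gli2 and Gli3 per kb in control replicates 1, 2 and 3, and 40.9%, 49.8% and 49.5% in libraries labelled double KO. The share of Gli2 was thus higher in all 3 of the latter. A share depends on all 3 genes. In control replicates 1 and 2 the estimated background was 9.51% and 14.3% of the Gli1 counts and 6.54% and 14.3% of the Gli2 counts. For Gli3 it was 5.63% and 9.99%, and it was not subtracted from the shares. In replicate 1 of the double KO, Gli2 itself was at 14.8 CPM beside 14.03 CPM in control replicate 1, while Gli1 was at 1.38 beside 5.15 CPM. Gli1 made up 24.1%, 29.2% and 18.6% in the controls and 7.11%, 4.01% and 17.7% in libraries labelled double KO, so that replicate 3 came just under the lowest control. These shares describe transcripts, not the processed forms of the proteins, and the differences in shares were not tested.

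**Figure D3:**
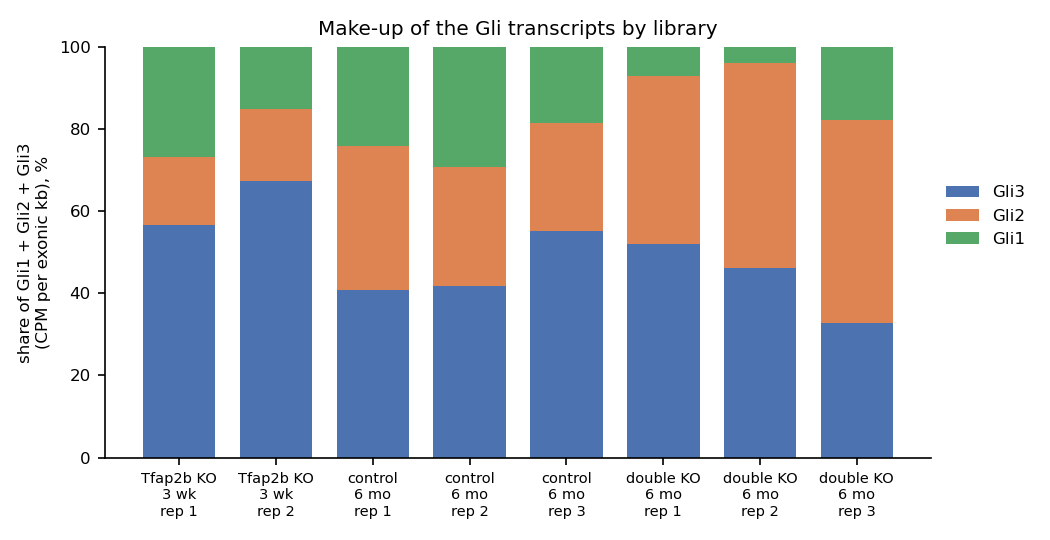
Share of Gli1, Gli2 and Gli3 (vertical axis, percent of their summed CPM per exonic kb) in each of the 8 libraries with counts. The Gli2 share lies between 26.4% and 35.1% in the controls at 6 months and between 40.9% and 49.8% in libraries labelled double KO.

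The other genes of the pathway were described from lists by role, and 39 of 43 listed genes were tested at 6 months. Of the 39, 1 was higher and 5 were lower past an adjusted p of 0.05 in edgeR, against backgrounds of 6.26% and 8.59%. With control replicates 1 and 2 left out together the count was 0 in both directions, and among the fits that left out 1 library it was 0 to 5 higher and 1 to 7 lower.

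Among 5 tested genes for ligands and their processing and release, 1 was lower and none higher, with a median log2 fold change of -0.81. At an unadjusted p of 0.05, 0 were higher and 3 lower, where 14.5% and 17.6% of all genes were, and DESeq2 called 0 and 2, where it called 9.25% and 12.3% of all genes. Scube2 (chromosome 7, 109798676 to 109865679), a secreted protein that helps release lipid-modified Hedgehog from the cell, was at 5.81, 19.97 and 13.7 CPM in control replicates 1, 2 and 3 and at 2.75, 2.93 and 5.97 CPM in libraries labelled double KO. The groups overlapped slightly, because replicate 3 of the double KO exceeded control replicate 1. The log2 fold change of Scube2 was -1.78 (SE 0.48, n = 3 each, edgeR adjusted p 0.0352), and it was no longer past the threshold in 5 of 16 alternatives, among them without control replicate 2 (-1.36) or without replicate 1 (-1.55) or replicate 2 (-1.59) of the double KO. Hhat, the enzyme that attaches palmitate to the ligand, was at 3.84 to 6.27 CPM in the controls and 2.31 to 3.77 CPM in libraries labelled double KO, with a log2 fold change of -0.81 that did not pass (edgeR adjusted p 0.154).

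Of the 5 co-receptors and ligand-binding proteins, Lrp2 was lower and none was higher past the threshold, and the median log2 fold change was 0.14. At an unadjusted p of 0.05, 0 were higher and 1 lower, and DESeq2 called 1 higher and 1 lower, counts near the shares of 32% and 21.6% over all genes. Lrp2 (chromosome 2, 69424340 to 69586065), an endocytic receptor that can bind Shh, was at 4.15, 17.0 and 0.781 CPM in control replicates 1, 2 and 3 and at 0.507 to 0.75 CPM in libraries labelled double KO. Control replicate 3 was close to the libraries labelled double KO, and the other 2 controls, those with the high receptor-gene density, stood above. For Lrp2 the log2 fold change was -3.33 (SE 0.99, n = 3 each, edgeR adjusted p 0.0447), -1.82 without control replicate 2 and -0.30 without control replicates 1 and 2, and 9 of the 14 alternatives that tested Lrp2 were not past the threshold, among them every fit that left out 1 library except control replicate 3. With the receptor-gene background subtracted, Lrp2 no longer passed the filter on low counts and was not tested. Nor was it tested where at least 10 counts were required in every library. The co-receptors Cdon (-0.45), Boc (0.14) and Gas1 (1.08) did not pass, at edgeR adjusted p-values of 0.16, 0.695 and 0.163. Gas1 was at 11.8 to 18.02 CPM in the controls and at 16.8, 20.4 and 61.98 CPM in libraries labelled double KO, where replicate 3 stood apart as it did in Gli1 and Gli2.

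None of the 14 inhibitors, kinases and other proteins downstream of Smoothened passed the threshold in edgeR, DESeq2 or limma-voom, and 2 were lower and 0 higher at an unadjusted p of 0.05, Gsk3b and Kif7, a smaller share than the 32% of all genes. Their median log2 fold change was -0.11. Sufu, which binds Gli proteins and holds them inactive, was at 20.2, 20.2 and 29.6 CPM in the controls and at 30.3, 33.5 and 35.7 CPM in libraries labelled double KO. All of the latter lay above the controls, with control replicate 3 just below the lowest of them, and the log2 fold change of 0.43 (SE 0.20, n = 3 each) did not pass (edgeR adjusted p 0.157).

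Of 7 genes for transport into and within the primary cilium, 2 were lower and none higher past the threshold, with a median log2 fold change of -0.11. At an unadjusted p of 0.05, 0 were higher and 3 lower, and DESeq2 and limma-voom each called 0 higher and 2 lower, beside shares lower over all genes of 17.6% at an unadjusted p, 12.3% in DESeq2 and 6.65% in limma-voom. Arl13b (chromosome 16, 62793685 to 62847040), a small GTPase of the ciliary membrane that is needed for normal Smoothened traffic, was at 66.1, 74.1 and 67.7 CPM in control replicates 1, 2 and 3 and at 29.3, 43.4 and 33.6 CPM in libraries labelled double KO. The groups were far apart, and Arl13b fell from 69.3 ± 4.26 to 35.4 ± 7.22 CPM (mean ± SD over 3 libraries each), and the log2 fold change of -1.04 (SE 0.18) had an edgeR adjusted p of 0.00622. It was past the threshold in 15 of 16 alternatives (-1.17 to -0.87) and not with control replicates 1 and 2 both left out (-0.99, edgeR adjusted p 0.081). Kif3a (chromosome 11, 53567379 to 53601967), a motor subunit that builds the cilium, was at 17.02, 16.5 and 18.8 CPM in the controls and at 8.04, 8.66 and 12.7 CPM in libraries labelled double KO, with no overlap. Kif3a had a log2 fold change of -0.89 (SE 0.24, n = 3 each, edgeR adjusted p 0.0334). It lost the threshold in 7 of 16 alternatives, among them every fit that left out a control or left out replicate 1 or 2 of the double KO, at -0.92 to -0.72. The other 5 ciliary genes did not pass, and Ift88 had a log2 fold change of 0.41 (edgeR adjusted p 0.267).

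Of 10 genes described as Hedgehog targets, 8 were tested, 1 was higher and 1 lower past the threshold, and the median log2 fold change was -0.54. All but 2 of the 8 had fitted values below 0. At an unadjusted p of 0.05, 2 were higher and 2 lower, DESeq2 called 2 higher and 1 lower, and so did limma-voom, beside shares over all genes of 32%, 21.6% and 12.3%. Ccnd1 (chromosome 7, 144929931 to 144939925), encoding cyclin D1, was at 67.6, 54.96 and 60.2 CPM in control replicates 1, 2 and 3 and at 109.2, 94.8 and 131.1 CPM in libraries labelled double KO, and rose by a log2 fold change of 0.80 (SE 0.16, n = 3 each, edgeR adjusted p 0.0135). Ccnd2 (chromosome 6, 127125162 to 127152193), encoding cyclin D2, went the other way, from 359.8, 366.7 and 349.7 CPM to 222.1, 268.1 and 265.9 CPM, a log2 fold change of -0.58 (SE 0.13, n = 3 each, edgeR adjusted p 0.0193). Ccnd1 lost the threshold in 3 of 16 alternatives, without control replicate 2 (0.73), without replicate 1 of the double KO (0.87) and without control replicates 1 and 2 (0.84), and Ccnd2 in 7 of 16, among them without control replicate 2 (-0.56) and without any 1 of the libraries labelled double KO (-0.59 to -0.45). Jag2, a Notch ligand, was at 76.98, 80.2 and 143.2 CPM in the controls and at 160, 180.5 and 189 CPM in libraries labelled double KO, with no overlap and a log2 fold change of 0.75 that just missed the threshold (edgeR adjusted p 0.0531) and was past it in 7 of 16 alternatives. Sox9, a follicle transcription factor, was at 77.5, 161.9 and 123.8 CPM in the controls and at 42.7, 30.7 and 119 CPM in libraries labelled double KO (log2 fold change -0.98, edgeR adjusted p 0.274). Both cyclin genes have many other inputs, and the classical readouts Gli1, Ptch1 and Hhip are given above.

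**Figure D4:**
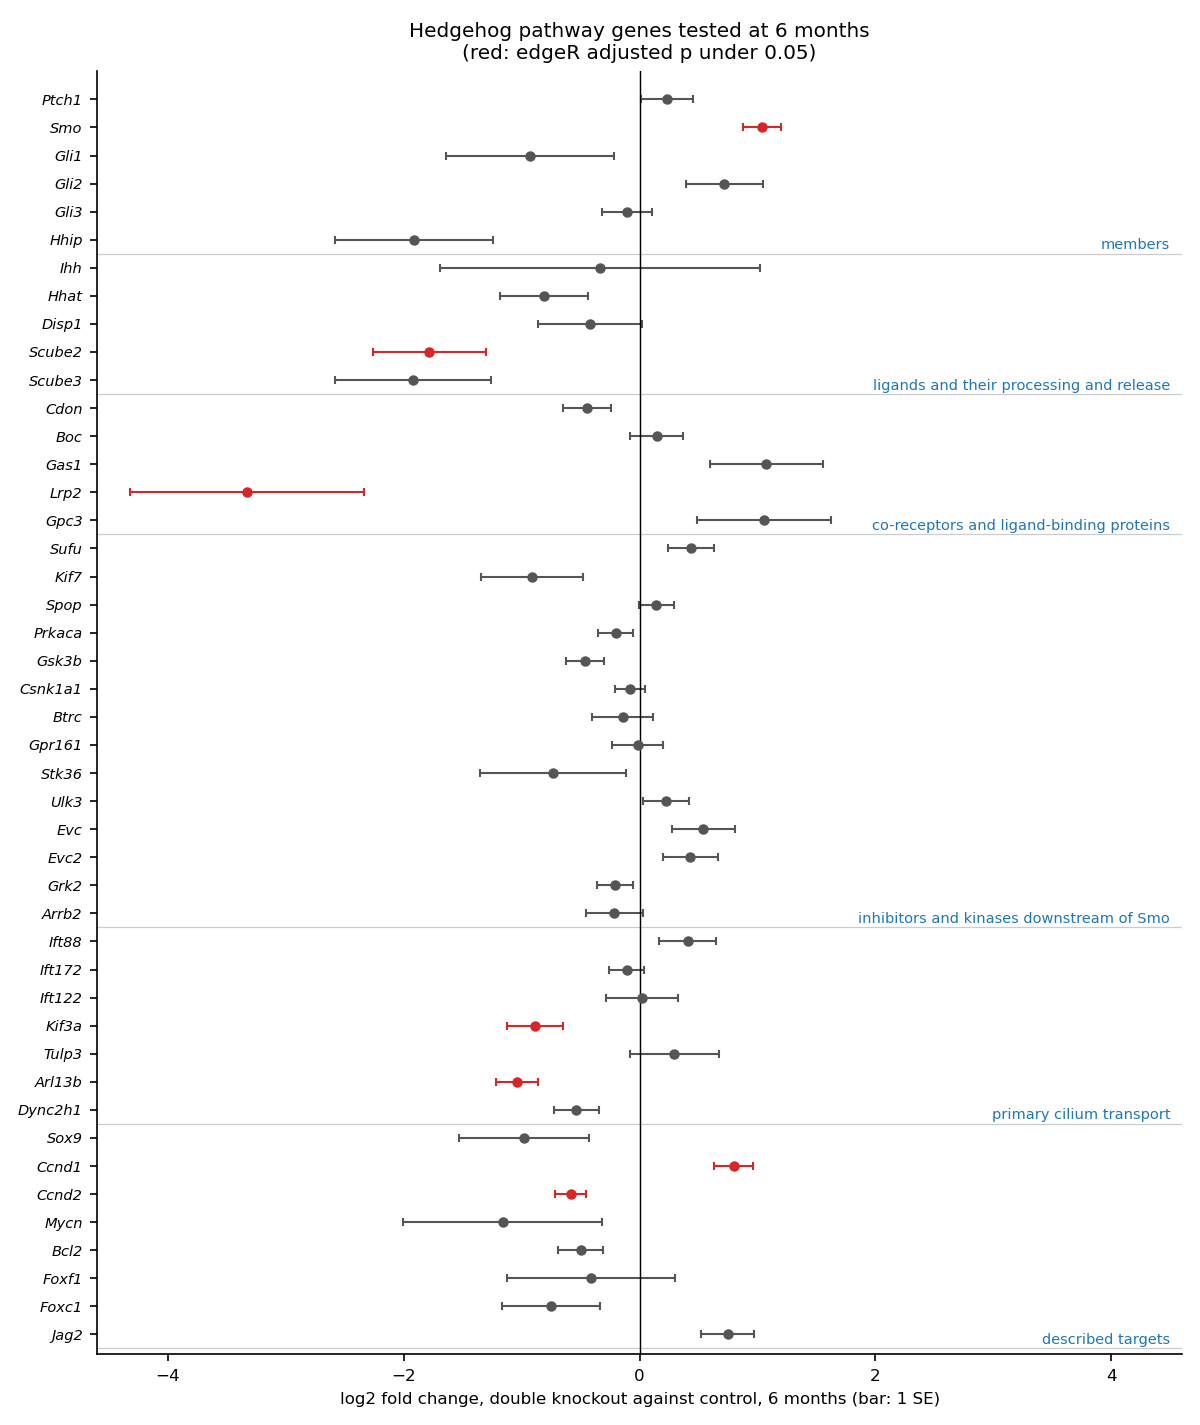
Log2 fold change with 1 SE (horizontal axis) of the Hedgehog genes tested at 6 months, grouped by role under the label at the foot of each block, with red for an adjusted p under 0.05 in edgeR. Smo (1.04) and Ccnd1 (0.80) are red to the right of 0, and Scube2, Lrp2, Kif3a, Arl13b and Ccnd2 are red to the left.

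Some markers of the other cell types that can carry Hedgehog transcripts differed between the groups, and others did not. As background for the calls below, 6.26% of all genes tested were called higher and 8.59% lower. Of the follicle stem cell, dermal papilla and dermal fibroblast markers, 9, 6 and 7 were tested. Of the hair matrix, shaft and inner root sheath, Merkel cell and interfollicular markers, 9, 3 and 6 were tested. The summed level of 9 follicle stem cell markers was 1063 to 1664 CPM in the controls and 445.7 to 873 CPM in libraries labelled double KO, with Lgr5 and Fgf18 called lower (log2 fold changes -3.63 and -2.31) and none higher. Most of that sum, except in replicate 3 of the double KO, was Krt15, a keratin of follicle stem cells and basal cells (log2 fold change -1.39, edgeR adjusted p 0.0513). Without Krt15 the sums were 335.6, 500 and 413.1 CPM in control replicates 1, 2 and 3 and 211.2, 200.3 and 467.7 CPM in libraries labelled double KO, so replicate 3 of the latter lay among the controls. The summed level of 11 dermal papilla markers was 21.3, 38.0 and 12.4 CPM in control replicates 1, 2 and 3. It was 4.35 to 10.2 CPM in libraries labelled double KO, and the controls with the high receptor-gene density, replicates 1 and 2, stood highest. Vcan was called lower (-2.33). Rspo4 was at 4, 14 and 2 counts in the controls and at 0 counts in all 3 libraries labelled double KO. Its estimated background in the controls was 3.82, 7.56 and 0.35 counts. The summed level of 8 dermal fibroblast markers was 54.8 to 160.7 CPM against 12.3 to 23.6 CPM, with Col1a1, Col1a2 and Col3a1 called lower. Of 12 markers of hair matrix, shaft and inner root sheath, 11 were in the files. Their sum was 90.1 to 124.4 CPM in the controls and 86.1 to 124.4 CPM in libraries labelled double KO. Msx2 and Lef1 were called lower and Foxn1 higher. The sum includes Foxn1, at 16.2 to 34.25 CPM in the controls and 40.9 to 54.95 CPM in libraries labelled double KO. The other 8 tested had fitted values below 0, and the median log2 fold change of the 9 was -0.69. Merkel cell markers summed to 8.72, 18.9 and 2.47 CPM in control replicates 1, 2 and 3. In libraries labelled double KO the sums were 1.77 to 3.84 CPM, so control replicate 3 lay among them. No Merkel cell gene was called. Atoh1 held 8 counts in control replicate 2, of which the estimated background was 6.76, and 0 in the other 5 libraries of that age. Of the marker genes called so far in these lists, Lgr5, Fgf18 and Col3a1 stayed past the threshold in every fit that left out 1 library. Vcan, Col1a1, Col1a2, Msx2, Lef1 and Foxn1 did not. Of 6 interfollicular markers, 3 were called higher, as Smo was, and none was called lower. Those 3 were Krt5, Krt14 and Krt1, at log2 fold changes of 0.90, 1.71 and 1.05 (edgeR adjusted p 0.0086, 0.000969 and 0.0081). Krt5, Krt14 and Krt1 also stayed past the threshold in every fit that left out 1 library. The others were not called: Krt10 at 0.04, Trp63 at 0.32 (groups not overlapping, higher) and the cornified envelope gene Lor at -1.28 (groups not overlapping, lower). These 3 genes and Krt15 were named after their values were seen. Sebaceous gland, Schwann cell and endothelial markers were also listed, and 7, 3 and 4 were tested. The sebaceous gland markers summed to 840.8 to 1087 CPM in the controls and 408.5 to 505.6 CPM in libraries labelled double KO. Of the 7 tested, 5 had fitted values below 0 and 2 above, and only Scd1 was called, as lower (-2.09). No Schwann cell or endothelial marker was called. The part of all these cell types in the values of Gli1, Hhip and Smo was not tested.

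Within the double KO, the library of replicate 3 held more of some genes used by follicle keratinocytes and their neighbours, but not of others. Beside 6.82 CPM of Gli1 against 1.38 and 0.75 CPM in replicates 1 and 2, and 35.8 CPM of Gli2 against 14.8 and 17.4 CPM, it held 61.98 CPM of Gas1 against 16.8 and 20.4 CPM and 119 CPM of Sox9 against 42.7 and 30.7 CPM. Lhx2, a transcription factor of follicle stem cells, was at 21.9 CPM against 5.14 and 3.55 CPM, and Foxc1 at 33.7 CPM against 13.8 and 9.68 CPM. Krt15, in contrast, was at 330.3 CPM against 234.4 and 672.5 CPM, Fgf18 at 1.58 CPM against 1.01 and 1.57 CPM, and the sum of all 9 follicle stem cell markers at 798 CPM against 445.7 and 873 CPM. Dermal fibroblast markers did not single this library out, at a sum of 23.6 CPM against 12.3 and 23.3 CPM. These genes were singled out after their values were seen, and 1 library against 2 allows no test.

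The 2 libraries labelled Tfap2b knockout at 3 weeks held 71.7 and 72.5 CPM of Ptch1, 48.6 and 44.4 CPM of Smo, 5.7 and 4.56 CPM of Gli1, 6.71 and 9.83 CPM of Gli2, 31.6 and 52.7 CPM of Gli3, 0.694 and 1.84 CPM of Hhip and 0 counts of Shh each, which allows up to 0.231 and 0.24 CPM at 3 counts of the total. The dermal fibroblast markers summed to 2617 CPM in replicate 1 and 17.4 CPM in replicate 2, so dermal transcripts differed far more between these libraries than the members did. Ptch1 and Smo were close in the pair. Gli2, Gli3 and Hhip were lower in replicate 1 and Gli1 was higher there. Of the members only Gli3 had 95% Poisson intervals that were apart, at 28.62 to 34.82 and 48.72 to 56.85 CPM. Those of Gli1, Gli2 and Hhip overlapped, so their differences lay within counting error. Age and genotype cannot be told apart in any comparison with the 6-month libraries, and none was made.

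Over all 8 libraries, and among genes with a mean of at least 1 CPM, the genes whose log2(CPM + 1) followed a member most closely were, for Smo, 2010016I18Rik, E2f4 and C1qbp (Pearson r 0.99, 0.98 and 0.98), and for Ptch1, Lrp6, Gm13198 and Ptk7 (0.95, 0.94 and 0.94). For Gli1 they were P2rx7, B930095G15Rik and Sdk2 (0.96, 0.95 and 0.95), for Gli2, Il1f8, Togaram1 and Chit1 (0.98, 0.96 and 0.96), and for Gli3, Nudt11, Tnks and Cdh24 (0.96, 0.94 and 0.94). Between members the highest value was 0.68, for Ptch1 and Gli3, and Gli1 with Ptch1 was at 0.20. The closest genes were picked as the highest of all those genes, while the member pairs were set beforehand. The values of the closest genes and of the member pairs can therefore not be set against each other. Shh and Hhip had too few counts for this description. The 8 points share libraries, depth, age and genotype, and the values are descriptions over them.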

How the data were processed

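RNA of epidermal sheets was sequenced as paired-end reads, per the labels' protocols. Each deposited file holds raw counts of reads for each gene, as whole numbers, per the file headers. The submitters' processing notes name Trimmomatic 0.36, STAR 2.5.2b, featureCounts of Subread 1.5.2 and the builds GRCm38 and GRCh38, without settings. Symbols were taken from GENCODE M21 (GRCm38), which held 99.3% of the identifiers. In 13 files every gene was at 0. The other 8 held 11318181 to 17746284 counts, and samples were grouped by title.

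The 2 groups at 6 months were compared with edgeR 4.0.16 in R 4.3.3 (filterByExpr, TMM normalization, robust glmQLFit, glmQLFTest, prior count 2), and p-values were adjusted over all genes by the Benjamini-Hochberg method. CPM are counts per 1000000 counts without TMM factors. The members, lists and alternatives were chosen with earlier results of these data known, and 1 listed pathway gene is not reported here. Named genes were the members, called genes of the pathway lists with up to 4 examples each, up to 3 markers a list, and the 3 genes most like each member with at least 10 counts in every library. Alternatives were other scalings and filters, DESeq2 1.42.0, limma-voom (limma 3.58.1), a replicate block, the 3-week libraries in the fit, subtraction of the background given by the counts per exonic kb in 1418 receptor genes, and each library left out. Leaving out control replicates 1 and 2 together was chosen after seeing the data. The fits were tested on simulated data.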

Additional observations from a re-analysis of the deposited data

How the results depend on the processing

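Of 2637 genes called at 6 months, the count became 4809 without a filter on low counts, 1729 with the replicate block, 1548 with the Tfap2b knockout libraries added, 437 with control replicates 1 and 2 left out together, and 668 (without replicate 1 of the double knockout) to 7544 (without control replicate 3) with 1 library left out. Members called higher were 2 without a filter and 0 with control replicates 1 and 2 left out together, and 1 in every fit that left out 1 library. Members called lower were 1 in DESeq2 and 0 to 1 with 1 library left out. Other pathway genes called higher were 2 with library totals, with at least 10 counts in every library, in limma-voom and with the replicate block, 3 in DESeq2, 4 without a filter, 0 with control replicates 1 and 2 left out together, and 0 to 5 with 1 library left out. Those called lower were 3 in limma-voom, 2 with the Tfap2b knockout libraries added, 0 with control replicates 1 and 2 left out together, and 1 to 7 with 1 library left out. Ptch1 turned to -0.050 with control replicates 1 and 2 left out together, and Gli3 to 0.14 without control replicate 3 and 0.045 without replicate 2 of the double knockout, none past the threshold. Over the fits that left out 1 library Gli3 ranged from -0.24 to 0.14. The cause of these changes was not tested. No pairing by replicate number was visible: the deviations of same-numbered libraries from their group means correlated at 0.0066, -0.17 and -0.068. These values cannot show how the samples relate to animals, which the labels did not give. With the block Smo was at 1.03 (edgeR adjusted p 0.0107). Hhip was not tested where at least 10 counts were required in every library. Depth limits Shh and Hhip, and to a lesser degree Gli1, which held 11 to 121 counts at 6 months. Of the members only Shh had a count of 0 there, and 3 counts of the total come to 0.169 to 0.265 CPM in those libraries.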
